A study of Mus musculus with 6 samples.

Results

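The genes described here encode the proteins of the cytosolic ribosome and of the separate ribosome inside mitochondria. They were found by gene symbol: a probe set belonged if its single symbol began with Rpl, Rps or Rplp and a number, was Rpsa, or began with Mrpl or Mrps and a number, leaving out pseudogenes and the Rps6k kinases. This gave 262 probe sets for 126 genes, out of 34945 probe sets with 1 symbol for 18193 genes. The cytosolic class held 106 probe sets for 50 genes and the mitochondrial class 156 probe sets for 76 genes. A gene was represented by its probe set with the highest mean over the arrays and was tested if that mean reached a log2 intensity of 4.92, the 40th percentile of all probe sets that are not controls. All 76 mitochondrial and 46 of the 50 cytosolic genes were tested, 122 of 126.

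The samples were whole choroid plexus from the lateral ventricles of male mice of the outbred CD1 stock, taken at 18 months (3 mice) or 2 months (3 mice) of age, with no treatment named in the labels. Both lateral plexuses of 1 mouse went onto 1 Affymetrix Mouse Genome array, as total RNA amplified to cDNA and labelled with biotin. An array reports the relative level of a transcript between samples, so levels of different genes are not compared below. The tissue is a mixture, and fewer cells of a type and less RNA per cell cannot be told apart in it.

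A cytosolic ribosome has a small subunit that reads the messenger RNA and a large subunit that joins amino acids, each built from ribosomal RNA and many proteins that are made in matched amounts. Most of these proteins are translated from mRNAs that start with a run of pyrimidines, the 5' terminal oligopyrimidine (TOP) tract, through which the kinase complex mTORC1 controls their translation. Mitochondrial ribosomal proteins are also encoded in the nucleus, but are imported into mitochondria, where their ribosome makes a few subunits of the respiratory chain. The plexus epithelium secretes cerebrospinal fluid and large amounts of protein, and is rich in both mitochondria and ribosomes.

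The 2 classes carried different sequence at their annotated starts. RefSeq promoter sequences (build GRCm38.p6, 250 bases before to 50 after the annotated start, the first entry of a gene) were matched for 41 cytosolic, 67 mitochondrial and 10213 of all genes tested. A tract of at least 8 pyrimidines beginning with C, within 20 bases of the start on either side, was present in 19 of 41 cytosolic genes (46.3%), 9 of 67 mitochondrial genes (13.4%) and 13.2% of all genes tested. An annotated start that falls exactly on a C followed by 4 pyrimidines was found in 8 cytosolic genes (19.5%), in 0 of 67 mitochondrial genes and in 2.39% of all. The 8 were Rpl14, Rpl35, Rpl38, Rplp2, Rps10, Rps18, Rps27 and Rps6. Starts are as annotated and were not measured in this tissue, so these shares are not the share of TOP mRNAs. The following 4 cytosolic starts, each 30 bases before and 20 bases from the start onward, are shown because their genes recur in the results, with the tract in capitals. The 3 mitochondrial starts after them belong to genes named below and hold no such tract.
Rps6 (chr4:86857348-86857397, minus strand): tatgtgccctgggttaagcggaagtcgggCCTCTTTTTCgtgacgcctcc
Rps27 (chr3:90213629-90213678, minus strand): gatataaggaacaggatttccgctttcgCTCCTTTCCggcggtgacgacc
Rplp2 (chr7:141447621-141447670, plus strand): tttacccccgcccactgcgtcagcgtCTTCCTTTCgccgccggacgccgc
Rps18 (chr17:33955646-33955695, minus strand): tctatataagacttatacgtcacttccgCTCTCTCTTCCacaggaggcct
Mrpl46 (chr7:78783070-78783119, minus strand): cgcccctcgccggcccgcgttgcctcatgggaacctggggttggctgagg
Mrps11 (chr7:78783101-78783150, plus strand): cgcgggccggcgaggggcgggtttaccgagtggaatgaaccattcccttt
Mrps12 (chr7:28741802-28741851, minus strand): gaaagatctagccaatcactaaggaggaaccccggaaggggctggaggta

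Motif cores of factors known for housekeeping and respiratory genes were searched on both strands of the same promoter windows. CCGGAAGT, the core bound by ETS factors such as GABP, was present in 24.4% of cytosolic, 16.4% of mitochondrial and 7.85% of all tested genes. GCATGCGC, the core of nuclear respiratory factor 1 (NRF1), was present in 2.44%, 11.9% and 5.23%. AAGATGGC, the core of YY1, was present in 7.32%, 17.9% and 4.59%. The GC box GGGCGG, a common promoter element, was present in 58.5%, 50.7% and 63.8%. A match is a string of letters and no proof of binding. The examples below are windows of up to 40 bases with the core, or its reverse complement, in capitals.
Rps6, ETS core (chr4:86857435-86857474, minus strand): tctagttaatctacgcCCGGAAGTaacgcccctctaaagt
Mrpl27, ETS core (chr11:94653720-94653759, plus strand): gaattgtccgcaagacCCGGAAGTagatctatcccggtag
Mrpl10, NRF1 core (chr11:97041432-97041471, plus strand): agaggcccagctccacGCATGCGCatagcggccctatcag
Mrpl36, YY1 core (chr13:73330963-73331002, plus strand): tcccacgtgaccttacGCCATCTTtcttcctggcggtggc
Mrps12, YY1 core (chr7:28741997-28742036, minus strand): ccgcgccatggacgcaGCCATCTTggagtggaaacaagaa

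Mitochondrial ribosomal protein genes also often stood head to head with another gene. In 24 of 67 (35.8%) the nearest start on the other strand pointed away and lay at most 1000 bases off, against 8 of 41 cytosolic genes (19.5%) and 16.6% of all genes tested. Mrpl46 and Mrps11, the starts shown above, lie 42 bases apart and both encode mitochondrial ribosomal proteins. Mrps12 starts 147 bases from Sars2, the mitochondrial seryl-tRNA synthetase, and Mrpl49 starts 192 bases from Fau, which encodes the cytosolic ribosomal protein eS30 as a fusion with a ubiquitin-like protein.

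Ages were compared with limma, fitted across all 12681 genes tested, with Benjamini-Hochberg adjustment over all of them and a threshold of 0.05. Differences are log2 values at 18 months minus 2 months, with a standard error (SE) from that fit. No ribosomal protein gene passed the threshold, and neither did any other gene: 0 of 46 cytosolic, 0 of 76 mitochondrial and 0% of all genes (lowest adjusted p 0.0540 by limma). Before adjustment, limma gave a p under 0.05 to 0 cytosolic genes higher and 0 lower, and 0 mitochondrial genes higher and 2 lower, where 4.02% of all genes were higher and 3.03% lower. The ranges of the 2 ages did not overlap for 2 cytosolic genes with higher values at 18 months and 3 with lower ones, and for 4 mitochondrial genes with higher and 5 with lower values. Over all genes, 7.06% were separated in the higher and 6.25% in the lower direction.

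Neuron markers, which may come from brain tissue attached to the plexus, varied in level between mice and are given before the comparisons. The mean log2 intensity of 11 neuron markers was 6.60, 7.29 and 8.32 in the 18-month mice (replicates 1, 2 and 3) and 7.25, 6.83 and 8.31 in the 2-month mice. Snap25, a synaptic vesicle fusion gene, was 10.43, 11.63 and 12.29 at 18 months and 11.10, 10.23 and 12.30 at 2 months. Replicate 3 was the highest at either age, and the ages overlapped. Among 11 markers of the plexus epithelium the mean was 12.57 ± 0.04 at 18 months and 12.56 ± 0.08 at 2 months (SD, n = 3 each), with Ttr, the thyroxine carrier that defines it, at 14.36, 14.30 and 14.25 against 14.48, 14.48 and 14.46. Of 12 macrophage and microglia markers 10 had values above 0 (median difference 0.52), of 11 oligodendrocyte markers 10 were above 0 (median 0.32), and of 10 markers of ependymal and other multiciliated cells all 10 were below 0 (median -0.31). None passed the adjusted threshold. Of the 11 epithelium markers 4 were above 0 and 7 below (median -0.04), and none was called. At an unadjusted p under 0.05, 4 macrophage markers, 2 oligodendrocyte markers and 1 epithelium marker (Aqp1, difference 0.64) were higher, against 4.02% of all genes. Lower at this p were 2 ependymal markers, against 3.03% of all genes. The oligodendrocyte mean overlapped between the ages, with 7.41, 8.20 and 8.80 in the older mice and 7.68, 6.61 and 8.34 in the younger. The part of other cell types in the values below was not tested, beyond a fit with the neuron marker mean as a covariate, in which the class medians were -0.00 (cytosolic) and -0.05 (mitochondrial).

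The cytosolic class differed little between the ages. Its mean over the 46 genes was 11.88, 11.87 and 11.78 in the 18-month mice and 11.90, 11.81 and 11.85 in the 2-month mice. The 2 ages overlapped, with means of 11.84 ± 0.06 and 11.85 ± 0.04 (SD, n = 3 each), a difference of -0.01. Of the 46 genes, 21 were above 0 and 25 below, with a median of -0.00, where the median of all genes tested was 0.00. The interquartile range of their differences ran from -0.09 to 0.06 and the whole class from -0.42 to 0.34. Grouped by symbol alone, the 24 large-subunit genes had a median of -0.00 and the 22 small-subunit genes -0.01. Rpl7l1 and Rps19bp1 are in these groups by name only, as described below.

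**Figure D1:**
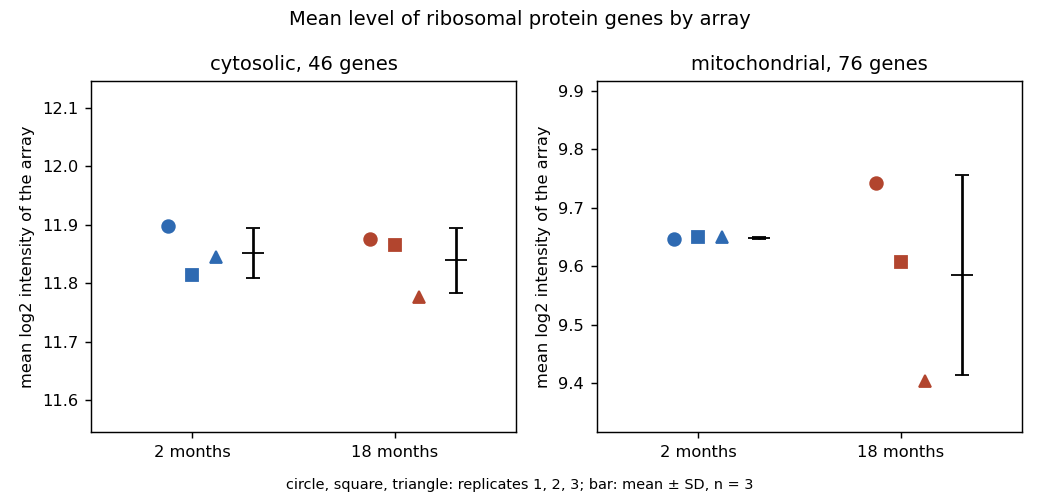
Mean log2 intensity of the 46 cytosolic (left) and 76 mitochondrial (right) ribosomal protein genes on each array, by age, with the mean ± SD of 3 mice beside the points. The cytosolic means overlap between 11.78 and 11.90, and among the mitochondrial means the third 18-month mouse lies lowest at 9.40.

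The mitochondrial class was more variable between the older mice. Its mean was 9.74, 9.61 and 9.40 in the 18-month mice and 9.65, 9.65 and 9.65 in the 2-month mice. The 18-month mice lay on both sides of the 2-month ones, with means of 9.58 ± 0.17 and 9.65 ± 0.0016 (SD, n = 3 each) and a difference of -0.06. The near-equal 2-month means did not hold within the subunits, grouped by symbol. Mrpl genes were 9.66, 9.68 and 9.73 at 2 months (SD 0.04, against 0.13 at 18 months). Mrps genes were 9.63, 9.60 and 9.52 at 2 months (SD 0.06, against 0.24 at 18 months). The mean of 20 cytosolic initiation factor genes also had the larger SD at 18 months, 0.16 against 0.07 at 2 months. For 11 mitochondrial translation factor genes it was the smaller, 0.08 against 0.23. The difference in spread between the ages was not tested. Of the 76 genes, 34 were above 0 and 42 below, with a median of -0.04 and a range from -1.40 to 0.56. Grouped by symbol alone, the 47 Mrpl genes (large subunit) had a median of -0.03 and the 29 Mrps genes (small subunit) -0.05. Mrps18a and Mrps36 are in the second group by name only, as described below. Leaving out replicate 3 of the 18-month mice turned the class median to 0.05, and leaving out replicate 3 of the 2-month mice gave 0.00. Leaving out replicate 1 of the 18-month mice gave -0.12.

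The classes were also set against each other within each array, as a description of their change with age. The cytosolic minus the mitochondrial mean was 2.13, 2.26 and 2.37 in the 18-month mice and 2.25, 2.16 and 2.20 in the 2-month mice. The 2-month values lay inside the range of the 18-month ones. The difference between ages, 0.05, was smaller than the SD of 0.12 among the 18-month mice, and without replicate 3 of the 18-month mice it was -0.01. Without replicate 1 of the 18-month mice it was 0.11, and the ages no longer overlapped.

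The third 18-month mouse read low across both classes. It was the lowest of the 6 arrays for 38 of 76 mitochondrial genes (50%) and 16 of 46 cytosolic genes (34.8%), and for 19.8% of all genes. On that array 63 of 76 mitochondrial genes (82.9%) and 38 of 46 cytosolic genes (82.6%) were below their own mean over the 6 arrays, against 53.4% of all genes. The median deviation was -0.20 for the mitochondrial and -0.07 for the cytosolic class. This array also had the lowest mean of the 6 for 16 elongation and other TOP genes (11.46) and for 20 initiation factor genes (10.65). For 41 ribosome biogenesis genes (8.51) it did not. The neuron marker mean was 8.32 in this mouse. In the third 2-month mouse it was 8.31, with a median mitochondrial deviation of -0.00. The part of any attached brain tissue in the low values was not tested. Among cytosolic genes the second 2-month mouse was also often lowest, for 17 of 46 (37%).

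**Figure D2:**
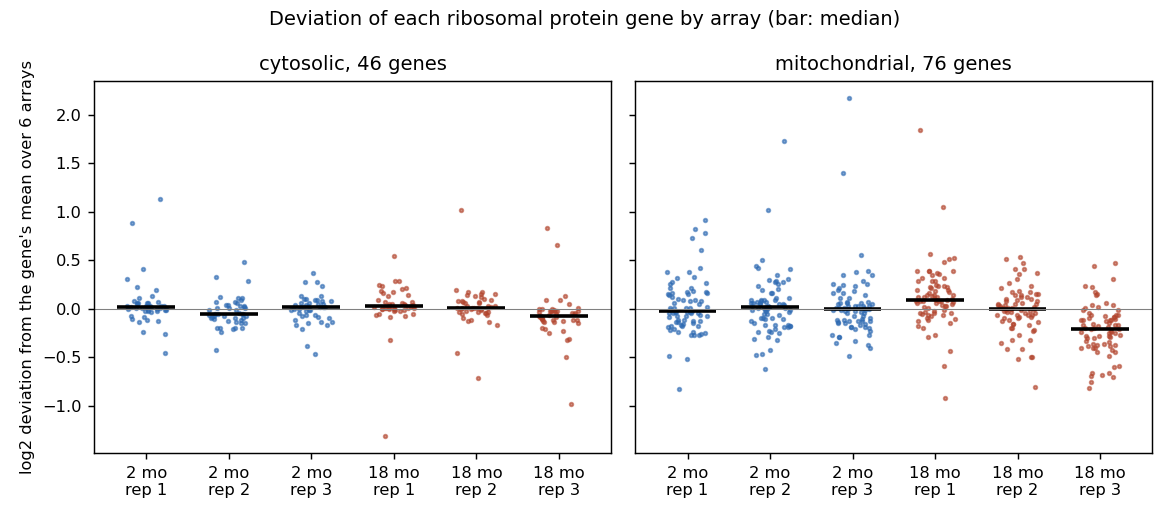
Deviation of each ribosomal protein gene from its own mean over the 6 arrays (log2), by array, for the cytosolic (left) and mitochondrial (right) class, with bars at the medians. The third 18-month mouse has the lowest median in both panels, -0.07 and -0.20.

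The precision of the single-gene differences varied between the classes. The 95% intervals below are not adjusted for the number of genes, so they do not give the smallest change that could have been called. For the cytosolic genes the median SE was 0.16, and for 42 of 46 (91.3%) the 95% interval of the difference lay wholly within 2-fold in either direction, for 35 (76.1%) within 1.5-fold. For the mitochondrial genes the median SE was 0.21, with 61 of 76 (80.3%) within 2-fold and 29 (38.2%) within 1.5-fold. Over all genes tested these shares were 63.5% and 20.1%. The spread between mice of one age went with the brightness of the probe set: its median was 0.11 for cytosolic genes, 0.24 for mitochondrial genes and 0.31 for all genes. Among genes with a mean log2 intensity of 12 or more it was 0.08 for 34 cytosolic genes and 0.09 for all 326 such genes. Of these 34 cytosolic genes, 33 had an interval within 1.5-fold, as did 81.3% of the 326. Bright probe sets near the top of the scale can understate changes, and the part of this in the narrow intervals was not tested.

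**Figure D3:**
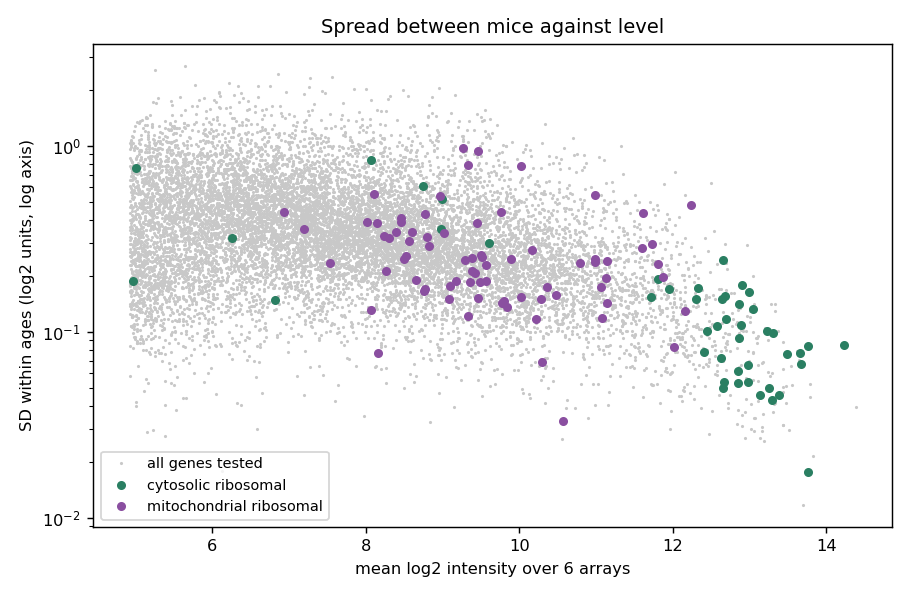
Spread between mice of one age (SD of log2 intensity, log axis) against the mean log2 intensity of each gene over 6 arrays, for all 12681 genes tested (grey) and for the cytosolic and mitochondrial ribosomal protein genes. The spread is smallest at the bright end, where most cytosolic genes (median spread 0.11) lie.

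Among small-subunit proteins of the cytosolic ribosome, Rps27, a zinc-finger protein, had the smallest p. It was 7.03, 7.02 and 6.91 in the older mice and 6.70, 6.83 and 6.44 in the younger. Every older mouse was above every younger one. The difference was 0.33 (SE 0.17, limma adjusted p = 0.773). Its paralog Rps27l, a target of p53, differed by -0.01. Rpsa, the small-subunit protein also known as the laminin receptor precursor, was 13.54, 13.32 and 13.32 at 18 months and 13.18, 13.29 and 13.20 at 2 months, again without overlap (difference 0.17, SE 0.16, limma adjusted p = 0.855). The Rpsa promoter window also holds an ETS core.

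Rps6, which S6 kinases phosphorylate downstream of mTORC1, was 10.15, 9.48 and 9.70 at 18 months and 9.15, 9.57 and 9.60 at 2 months. The ages overlapped, and the difference of 0.34 (SE 0.24, limma adjusted p = 0.821) depended on the probe set, as described below. Rps4x, the X-linked form of eS4, was 12.22, 12.24 and 12.22 at 18 months and 12.61, 12.21 and 12.28 at 2 months. On this probe set the difference of -0.14 was set by the first 2-month mouse. The other Rps4x probe set above the filter differed by -0.50. Rps15, an essential protein near the decoding site, was 12.93, 13.00 and 12.87 at 18 months and 13.04, 13.00 and 13.08 at 2 months (difference -0.11, SE 0.15), separated by less than the rounding shown. Rps19, the protein most often mutated in Diamond-Blackfan anaemia, differed by -0.13. Rps29 varied least: it was 13.74, 13.73 and 13.72 at 18 months and 13.78, 13.76 and 13.80 at 2 months. These ranges did not overlap, and the difference was -0.05. The moderated SE of 0.15 for Rps29 exceeds its own spread of 0.02 because limma draws single-gene spreads toward the common one.

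Among large-subunit proteins, the stalk that recruits translation factors was represented by Rplp0 and Rplp2. Rplp0, the stalk base, was 11.88, 11.85 and 11.69 at 18 months and 11.45, 11.82 and 11.56 at 2 months (difference 0.19, SE 0.18, limma adjusted p = 0.852), with overlap. Rplp2, one of its acidic partners, differed by 0.10. Rpl8 was 12.16, 12.12 and 11.83 at 18 months and 11.71, 12.03 and 11.81 at 2 months, a difference of 0.19. Rpl10a was 12.79, 12.84 and 12.74 at 18 months and 12.96, 12.87 and 12.86 at 2 months, lower without overlap by a difference of -0.10. Rpl11, which binds the p53 regulator MDM2, differed by 0.09, Rpl13a by 0.04, and Rpl7a by -0.15, the last set by a second 2-month mouse at 13.32 against 12.97 and 12.91 in the others. Rpl22 and its paralog Rpl22l1 differed by -0.06 and -0.00.

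The 2 most negative cytosolic differences belonged to Rps19bp1 and Rpl7l1, which are not core ribosomal proteins, and the next to Rps25, a small-subunit protein (-0.36, SE 0.55). Rps19bp1, whose product binds Rps19, was 8.75, 8.62 and 8.25 at 18 months and 9.88, 8.32 and 8.68 at 2 months. The difference of -0.42 (SE 0.41) rested on the first 2-month mouse and was 0.04 without it. Rpl7l1, a nucleolar relative of Rpl7, was 9.24, 9.15 and 8.02 at 18 months and 9.41, 8.88 and 9.28 at 2 months. Its difference of -0.39 (SE 0.36) rested on the third 18-month mouse and was 0.01 without it. Rpl14 (difference -0.20, SE 0.27) and Rpl39 (0.28, SE 0.25), which lines the exit tunnel, overlapped between the ages.

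The 4 genes that were not tested had means under the filter of 4.92. As a gauge of background, 27 Bacillus control probe sets had a median log2 intensity of 3.03 and a highest value of 4.51. Rps4l lay just under the filter and above all of these controls, and the other 3 lay within their range. The genes were Rpl3l, the striated-muscle paralog of Rpl3 (3.88 at 18 and 4.25 at 2 months), Rpl39l, the testis-enriched paralog of Rpl39 (2.84 and 2.58), Rps4l (4.87 and 4.83) and Rps16 (2.68 and 2.66). The low value of Rps16, a universal small-subunit protein, belongs to a probe set of its own symbol. Another probe set, which shares its annotation with a pseudogene, read 13.31 and 13.27.

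**Figure D4:**
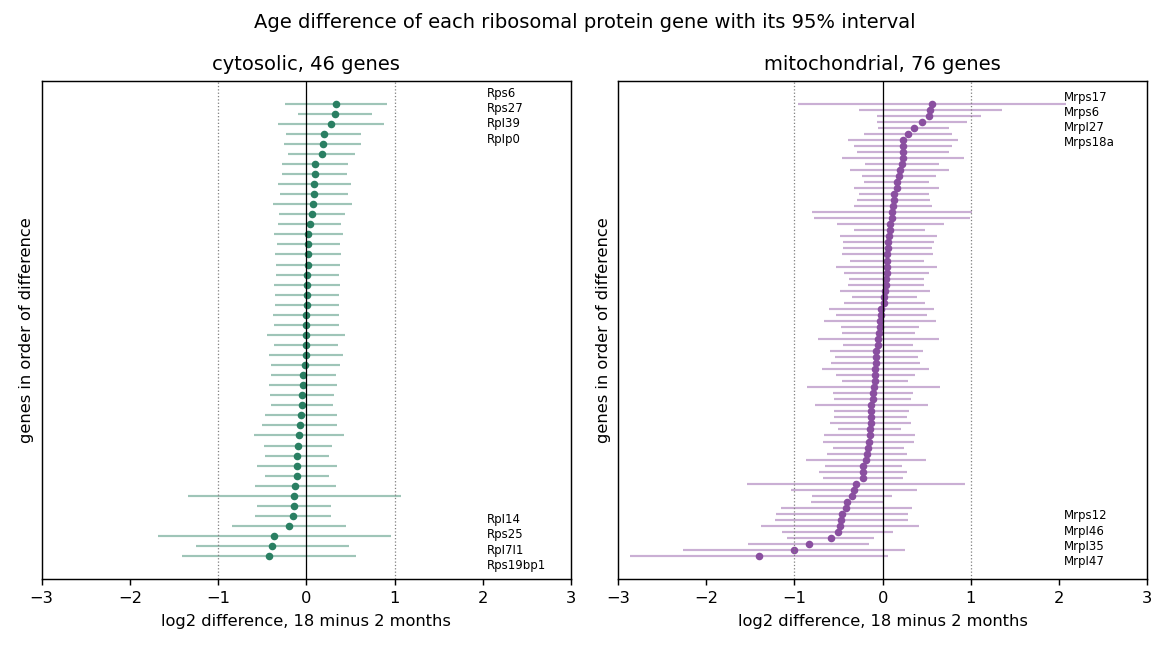
Log2 difference, 18 minus 2 months, of each cytosolic (left) and mitochondrial (right) ribosomal protein gene, in order of size, with its 95% interval from limma. Dotted lines mark 2-fold, the 4 genes at either end are named in order, and 42 of 46 cytosolic and 61 of 76 mitochondrial intervals lie between the dotted lines.

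Ribosomal protein genes have many processed pseudogenes, so probe sets often carry several symbols. There were 114 such probe sets with a ribosomal protein gene among their symbols, 104 of them joined only to pseudogenes, predicted genes or retrogenes. Adding these in a fit chosen after the data were seen brought 25 cytosolic genes into the test and replaced the probe set of 8. The class then held 71 tested genes, with 0 called and 0 at an unadjusted p under 0.05. The share of all genes at this p was not computed for that fit. Their median was -0.01, and the interval lay within 1.5-fold for 64 of 71 and within 2-fold for 69.

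The differences of the new and replaced genes ran from -0.24 to 0.12. The lowest was Rplp1, the second acidic stalk protein, at 13.06, 13.07 and 12.88 in the 18-month mice and 13.33, 13.19 and 13.22 in the 2-month mice. Every older mouse was below every younger one (SE 0.16, limma adjusted p = 0.802). The highest was Rpl12, which binds at the stalk base (0.12). Rpl3 and Rpl10, large-subunit proteins at the catalytic core, had differences of 0.06 and -0.03, and Rpl5, which carries 5S ribosomal RNA with Rpl11, 0.10.

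Of the 8 genes whose probe set was replaced, 5 turned their sign. The differences of Rps27, Rps6 and Rpl39 became -0.05, -0.01 and -0.09, while Rpl12 went from -0.14 to 0.12 and Rps2 from -0.05 to 0.06. On its shared probe set Rps6 was 13.35, 13.34 and 13.31 at 18 months and 13.35, 13.33 and 13.33 at 2 months. Rps27 was 13.83, 13.83 and 13.73 at 18 months and 13.93, 13.80 and 13.80 at 2 months. The separation of the ages seen for Rps27 on its single-symbol probe set was therefore absent on the shared one.

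A pyrimidine tract within 20 bases of the annotated start, on either side, was present in 19 cytosolic genes. For some, such as Rpl39, it lies wholly before the annotated start, so the split is not by TOP tract. The median difference of the 19 was -0.00, and that of the 22 matched genes without one was -0.05. The median was 0.02 among the 8 whose annotated start is itself a C followed by pyrimidines.

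In the large subunit of the mitochondrial ribosome, Mrpl46 had the smallest p of all 122 genes. It was 7.84, 7.74 and 7.20 at 18 months and 8.93, 8.17 and 8.19 at 2 months, with every older mouse below every younger one. The difference was -0.84 (SE 0.29, limma adjusted p = 0.672), and p was under 0.05 only before adjustment. Its head-to-head neighbour Mrps11 was 9.34, 9.44 and 8.65 at 18 months and 8.91, 9.11 and 8.69 at 2 months, a difference of 0.24 (SE 0.26) with overlap. The 2 genes, 42 bases apart at their starts, thus had differences of opposite sign. Whether the difference between them exceeds error was not tested.

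Mrpl36, the homologue of a small zinc-binding bacterial protein, was 9.80, 9.61 and 9.49 at 18 months and 10.11, 9.91 and 10.08 at 2 months, lower without overlap (difference -0.40, SE 0.17, limma adjusted p = 0.711). Mrpl47, the homologue of bacterial L29 at the exit tunnel, had the lowest difference of the class. It was 8.54, 8.65 and 9.08 at 18 months and 9.62, 9.23 and 11.63 at 2 months. The ranges did not overlap, but the difference of -1.40 (SE 0.61, limma adjusted p = 0.714) was -0.67 without the third 2-month mouse. The 3 Mrpl47 probe sets above the filter ran from -1.40 to -0.24. Mrpl35 had one high 2-month mouse as well, with 8.74, 9.11 and 8.63 at 18 months and 9.48, 11.06 and 8.96 at 2 months. Its difference was -1.0 (SE 0.52) with all mice and -0.39 without the second 2-month mouse.

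Some large-subunit genes read higher in the older mice. Mrpl50 was 9.45, 9.70 and 9.37 at 18 months and 9.16, 9.17 and 9.14 at 2 months, without overlap (difference 0.35, SE 0.17, limma adjusted p = 0.744). Mrpl27, the homologue of bacterial L27 at the catalytic centre, was 8.95, 9.03 and 8.49 at 18 months and 8.57, 7.95 and 8.38 at 2 months, a difference of 0.52 (SE 0.24) with overlap. Mrpl34 was 10.43, 10.35 and 10.35 at 18 months and 10.12, 10.25 and 10.28 at 2 months, higher without overlap by 0.16. Mrpl10, a stalk protein, differed by 0.29, Mrpl12, its partner, by -0.11, and Mrpl3 by 0.04.

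In the small subunit, Mrps12, a conserved protein of the decoding centre, was 9.48, 9.37 and 8.97 at 18 months and 9.75, 10.07 and 9.76 at 2 months. Every older mouse was below every younger one, and the difference was -0.59 (SE 0.21, limma adjusted p = 0.682). With Mrpl46 it makes up the 2 genes under 0.05 before adjustment. Sars2, its head-to-head neighbour, was 5.41, 6.06 and 5.68 at 18 months and 5.51, 5.78 and 5.51 at 2 months (difference 0.12, SE 0.22). Mrps23 was 8.41, 7.90 and 8.12 at 18 months and 9.13, 8.45 and 8.37 at 2 months, a difference of -0.51 (SE 0.26) with overlap. The 3 Mrps23 probe sets above the filter ran from -0.51 to 0.11. Mrps10 differed by 0.22, Mrps27, a pentatricopeptide protein, by -0.10, and Mrps7 by -0.02. Mrps36, now known as a subunit of the oxoglutarate dehydrogenase complex, varied little, with 10.51, 10.48 and 10.51 at 18 months and 10.66, 10.68 and 10.60 at 2 months (difference -0.15, no overlap).

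The 3 homologues of bacterial S18 had differences of both signs. Mrps18a, whose product sits in the large subunit in spite of its name, was 9.85, 9.41 and 9.27 at 18 months and 9.16, 8.86 and 9.16 at 2 months, without overlap (difference 0.45, SE 0.21, limma adjusted p = 0.746). Mrps18b differed by 0.18. Mrps18c differed by -0.48, with one 2-month mouse at 12.01 and the others at 10.81 and 10.87.

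Mrps6 was 13.29, 12.10 and 12.14 at 18 months and 11.97, 12.05 and 11.88 at 2 months. Older mice were all above younger ones, but the difference of 0.54 (SE 0.34, limma adjusted p = 0.797) was 0.15 without the first 18-month mouse. In RefSeq the gene overlaps Slc5a3, which encodes a myo-inositol transporter, and which of the transcripts the probe set reads was not tested. An array more than 1 log2 unit from the gene's mean occurred for 2 cytosolic genes (4.35%), 6 mitochondrial genes (7.89%) and 15.9% of all genes, shares whose difference was not tested.

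Different probe sets for a gene disagreed most for Mrps11, Rpl35 and Mrpl35. The second Mrps11 probe set was 5.93, 5.05 and 8.77 at 18 months and 4.33, 4.99 and 4.32 at 2 months, a difference of 2.04 against 0.24 for the first. Of 6 probe sets for Rpl35, a dim one differed by -1.49 and the other 5 by 0.01 to 0.03. The 3 for Mrpl35 ran from -1.0 to 0.16. Among genes with several probe sets above the filter the median range was 0.20 for 22 cytosolic and 0.35 for 35 mitochondrial genes. Fitted as single probe sets, 0 members were called. At an unadjusted p under 0.05, 0 cytosolic probe sets were higher and 2 lower of 96, and 1 mitochondrial probe set was higher and 4 lower of 142. Over all probe sets above the filter in that fit, 4% were higher and 3.08% lower at this p.

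Ribosomal proteins under other names gave mixed values. Fau differed by 0.12. Dap3, a GTP-binding protein of the mitochondrial small subunit, was 9.05, 9.26 and 8.73 at 18 months and 8.06, 8.24 and 8.63 at 2 months, higher without overlap (difference 0.70, SE 0.23, limma adjusted p = 0.663). Ptcd3, a pentatricopeptide protein of the same subunit, was 8.57, 8.48 and 8.56 at 18 months and 9.82, 11.73 and 8.80 at 2 months, a difference of -1.58 (SE 0.68, limma adjusted p = 0.714).

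Other genes of cytosolic translation showed no called change either. Of 16 genes for elongation and other TOP mRNAs, 8 were above and 8 below 0 (median -0.00), and of 20 initiation factor genes 9 were above and 11 below (median -0.02). Of 41 ribosome biogenesis genes 18 were above and 23 below (median -0.06). None of these genes had an unadjusted p under 0.05. Of 25 genes for mTORC1 and the control of TOP mRNAs, 14 were above and 11 below (median 0.09). One was lower at an unadjusted limma p under 0.05, against 3.03% of all genes: Rps6ka3, the kinase RSK2, with 8.61, 8.69 and 8.76 at 18 months and 9.32, 9.51 and 9.08 at 2 months (difference -0.61, SE 0.18, limma adjusted p = 0.613).

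On the mitochondrial side, 4 of 11 translation factor genes were above 0 and 7 below (median -0.17), and 10 of 23 ribosome assembly genes were above and 13 below (median -0.02). Mrm1, a methyltransferase of mitochondrial ribosomal RNA, had a difference of -0.62, and Trub2, a pseudouridine synthase, 0.83. Of 15 aminoacyl-tRNA synthetase genes 9 were above and 6 below (median 0.05), and 3 were higher at an unadjusted p under 0.05: Pars2 (0.95), Yars2 (0.44) and Rars2 (0.47). The share of all genes higher at this p was 4.02%. None of these was called.

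Of 14 regulators of mitochondrial biogenesis, 4 were above 0 and 10 below, with a median of -0.12. At an unadjusted p under 0.05, 1 was lower, against 3.03% of all genes, and 0 were called. Their mean per array was 7.81, 7.84 and 7.82 in the older mice and 7.99, 8.09 and 7.96 in the younger, without overlap. Esrra, the oestrogen-related receptor alpha, was 6.47, 6.33 and 6.27 at 18 months and 6.88, 7.43 and 6.58 at 2 months (difference -0.61, SE 0.25, limma adjusted p = 0.707). Pprc1, a relative of the coactivator PGC-1, differed by -0.78 (SE 0.35), and Gabpa, the ETS subunit of GABP, by -0.64 (SE 0.32), both with overlap. These 3 genes had the smallest p of the list. Among the others, Tfam differed by -0.42, Ppargc1a by -0.08, Ppargc1b by 0.15 and Nrf1 by 0.02.

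The array also carries control probe sets for 18S ribosomal RNA, the RNA of the small cytosolic subunit. Their mean was 13.82, 13.78 and 13.74 at 18 months and 13.94, 13.90 and 13.95 at 2 months. Every older mouse was below every younger one, with means of 13.78 ± 0.04 and 13.93 ± 0.02 (SD, n = 3 each) and a difference of -0.15. An exact two-sided permutation test gave p = 0.1, the smallest that 3 mice against 3 allow, and 0.3 after adjustment over 3 such tests. Each of the 3 probe sets was lower without overlap, by differences of -0.14, -0.14 and -0.17.

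These intensities are close to the top of the scale, where ribosomal protein probe sets also lie. All 16 genes with a mean of 13.5 or more had a median difference of -0.03, and the 5 cytosolic ribosomal protein genes among them -0.00. Of the 16, 5 were lower without overlap, against 6.25% of all genes, and 0 were higher, against 7.06%. Ttr, one of the 5 lower genes, differed by -0.17. The difference between the 3' and 5' Gapdh probe sets, a gauge of RNA integrity and amplification, was 1.41 ± 0.16 at 18 months and 1.57 ± 0.12 at 2 months (SD, n = 3 each, exact permutation p = 0.3, adjusted 0.45). The same gauge for beta-actin gave -0.19 ± 0.08 at 18 months and -0.21 ± 0.23 at 2 months, with p = 1 by the exact permutation test. Their part in the 18S values was not tested.

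**Figure D5:**
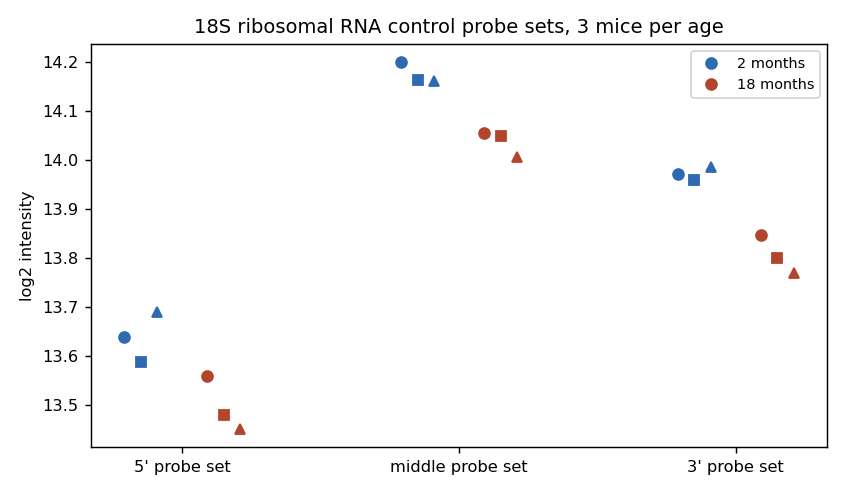
Log2 intensity of 3 control probe sets for 18S ribosomal RNA (5', middle and 3' part) on each array, in 3 mice per age. In each probe set the 18-month mice lie below the 2-month mice, by 0.14 to 0.17 on average.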

How the data were processed

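Per the submitters' processing notes, the authors used RMA, a method of background correction, normalization across arrays and summary of probes, for the deposited values. Its version is not given in the sources used here. Intensities in the authors' table span 2.47 to 26820.67, a linear scale, and their log2 was taken. Amplification of small inputs can distort dim or partly degraded transcripts, and bright probe sets near the top of the scale can understate changes. Symbols came from the platform annotation, and only probe sets with a single symbol were used.

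The comparison of 3 arrays with 3 used lmFit and eBayes from limma 3.58.1 under R 4.3.3 (no covariate, two-sided, 6.61 moderated degrees of freedom) and intervals at the 95% level. The number of arrays limits precision, and nothing in the labels excludes a shared litter or cage, so p-values measure only the spread between these mice. The fit was also run on simulated data with independent Gaussian noise of the spread it had estimated. These hold no array-wide shifts or outlying arrays, so they cannot show how the fit behaves where such arrays occur. The genes and all 19 gene and marker lists were chosen with earlier results of these data known, and no list was given a test. Genes named with values were the 6 with the smallest p per class and direction, a fixed set of paralogs and well-known proteins, the 3 whose probe sets disagreed most, and up to 3 per pathway list. Others, such as Rps29, Rpl10a, Mrpl34, Mrps36, the S18 homologues and the head-to-head neighbours, were chosen after their values were seen. Alternatives changed the filter, the probe set rule, the normalization, covariates, array weights and the arrays used.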

Additional observations from a re-analysis of the deposited data

How the results depend on the processing

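Under 19 alternatives to the processing, 0 ribosomal protein genes were called in either class. The cytosolic median ran from -0.03 to 0.02, the mitochondrial median from -0.12 to 0.06, and the cytosolic minus mitochondrial difference between ages from -0.03 to 0.11. None moved from its reported value by more than the pooled SD between mice, 0.05, 0.12 and 0.09. The 0.11, without 18-month replicate 1, is itself above that SD. The smallest adjusted p of a ribosomal protein gene ran from 0.543 to 0.848. Over all genes the count of calls was 0 in 14 alternatives and at most 5 in the others. With each mouse left out in turn, the cytosolic median ran from -0.02 to 0.02 and the mitochondrial one from -0.12 to 0.05. The number of mitochondrial genes at an unadjusted p under 0.05 was 2 as reported. It ran from 1 to 7, the last with probe sets averaged per gene. The share of all genes at this p was not computed for the alternatives, so whether the change in count is particular to these genes is not known.

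Among 626 values of 35 single genes under these alternatives, 29 turned their sign, in 12 genes. Rps6 was -0.0574 with probe sets averaged per gene, Rpl14 was 0.00834 without both 18-month replicate 3 and 2-month replicate 2, Rpl7l1 was 0.00797 without 18-month replicate 3, and Rps19bp1 was 0.0377 without 2-month replicate 1. With probe sets shared with pseudogenes, chosen after seeing the data, Rps27 was -0.0482, Rps6 -0.00520 and Rpl39 -0.0905. With each mouse left out in turn, Rpl7l1 reached down to -0.605, Rps19bp1 to -0.740 and Rpl14 to -0.386. In the same way, Rpl22 ran from -0.139 to 0.0196, Rpl22l1 from -0.125 to 0.114, Rps27l from -0.109 to 0.0574, Mrpl3 from -0.0954 to 0.111, Mrps7 from -0.141 to 0.130 and Mrps27 from -0.367 to 0.0828. With probe sets averaged per gene, Rpl22 was 0.143 and Mrpl3 -0.152, and without probe sets of the _x_at and _s_at kinds Rpl22 was 0.00506. With quantile normalization Rpl22l1 was 0.0301 and Rps27l 0.0197, with the neuron covariate Rpl22l1 was 0.00269, and with array weights Mrps7 was 0.0356. Without both 18-month replicate 3 and 2-month replicate 2, Mrps7 was 0.154 and Mrps27 0.236. The cause was not tested.

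The replicate numbers were not taken to pair the mice: the deviations of same-numbered mice from their age means correlated at -0.02, 0.02 and 0.17, and 2 of 3 older mice correlated best with their own number. With the replicate block the class medians were -0.00 and -0.04, their difference 0.05, and 0 genes were called. In that fit 4 mitochondrial genes had an unadjusted p under 0.05, and the share of all genes at this p was not computed.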

Other observations

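In some ribosomal protein genes 1 array lay far from the other 5. Mrps17, a small-subunit protein of the mitochondrial ribosome, was 11.10, 8.94 and 8.57 at 18 months and 8.99, 9.10 and 8.86 at 2 months, and Mrpl43 was 9.75, 10.10 and 9.75 at 18 months and 9.53, 9.55 and 11.42 at 2 months. The single-symbol probe set of Rps25 varied among the older mice, being lowest in one and highest in another of the 6: it was 6.75, 9.09 and 7.81 at 18 months and 8.12, 8.19 and 8.43 at 2 months, while its probe set shared with a pseudogene was 13.25, 13.25 and 13.10 at 18 months and 13.28, 13.28 and 13.33 at 2 months. Mrpl47, Mrpl35, Ptcd3 and Mrps6 are described with the results.

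Other head-to-head neighbours of ribosomal protein genes gave these differences. Rps27 starts 67 bases from Rab13, a small GTPase gene of tight junctions. The Rps27 difference was 0.33 on its single-symbol probe set and -0.05 on the shared one. The Rab13 difference was -0.69 (SE 0.27, limma adjusted p = 0.697). Mrpl47 (-1.40) starts 308 bases from Ndufb5, a subunit of respiratory complex I, at 0.08. Mrpl27 (0.52) starts 48 bases from Eme1, a DNA repair endonuclease subunit, at 0.27, and Mrps18c (-0.48) starts 159 bases from Helq, a DNA helicase gene, at 0.27. Differences within such pairs were not tested.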
